A study of Mus musculus with 14 samples.

Results

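The mitochondrial ribosomal proteins are nuclear-encoded proteins of the ribosome that works inside mitochondria. Their genes were taken as all probe sets with a single platform gene symbol that begins with Mrpl (large subunit) or Mrps (small subunit) followed by a digit. This gave 74 genes on 127 probe sets, of 12393 genes with 1 symbol on the array, 47 in the large subunit and 27 in the small one. Where a gene had several probe sets, the one with the highest mean across the 14 arrays stood for it. All 74 of these passed the filter on the mean intensity over all arrays, which kept 8027 of the 12393 genes. A further 3 probe sets carried the symbol of such a gene together with another symbol (Mrpl30, Mrpl53 and Mrps34) and were left out; Mrps34 was also measured by a probe set of its own.

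The study measured liver RNA of C57BL/6J mice with diet-induced obesity (DIO) on 14 Affymetrix expression arrays, 1 per sample, in an experiment on lowering JNK1 in the liver. The groups were liver treated with an adenovirus that carries a short hairpin RNA (shRNA) against Jnk1 (n = 5), liver treated with an adenovirus that carries an shRNA against green fluorescent protein, GFP (n = 4, numbered 1, 2, 3 and 5 in the labels), and vehicle-treated liver (n = 5). All 3 groups were obese by diet. The labels give no age, virus dose, route or time of treatment, name no second Jnk1 hairpin, and do not say whether each array is a separate mouse, so the p-values rest on a spread between arrays that may be technical. Adenovirus in the blood of mice mainly reaches hepatocytes, while the arrays read RNA of whole liver; fewer cells of a type and less RNA per cell cannot be told apart in such samples.

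Mitochondria translate a small set of messenger RNAs from their own genome, all for subunits of the oxidative phosphorylation complexes, the machinery that turns fuel oxidation into ATP. The ribosome that does this has a small subunit, which reads the message, and a large subunit, which joins the amino acids. Many of its proteins descend from bacterial ribosomal proteins, and others have no bacterial counterpart and are specific to mitochondria. All of them are made in the cytosol and imported, so that their supply depends on nuclear genes. Hepatocytes are rich in mitochondria, which oxidise fatty acids and run part of gluconeogenesis and the urea cycle.

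Promoter windows are shown for 4 genes that the results below turn on, 3 that were higher and 1 that was lower with Jnk1 shRNA. They were chosen after their values had been seen. Each window runs from 250 bases before to 50 bases after the annotated start, 5′ to 3′ on the gene's strand, from RefSeq (GRCm38.p6). Capitals mark matches to the letters of an ETS-family motif (CCGGAAG), an NRF1 motif (GCGCN followed directly by TGCGC) or a YY1 motif (AANATGGCG), searched on both strands; the 3 spellings do not overlap in these windows.
Mrpl22 (chr11:58171414-58171713, plus strand): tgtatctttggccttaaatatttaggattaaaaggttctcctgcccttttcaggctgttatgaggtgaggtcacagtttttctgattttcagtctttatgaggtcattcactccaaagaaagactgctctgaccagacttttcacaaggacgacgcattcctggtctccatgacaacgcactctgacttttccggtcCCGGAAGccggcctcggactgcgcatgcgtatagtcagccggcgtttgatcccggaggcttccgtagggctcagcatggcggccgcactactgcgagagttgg
Mrpl43 (chr19:45006393-45006692, minus strand): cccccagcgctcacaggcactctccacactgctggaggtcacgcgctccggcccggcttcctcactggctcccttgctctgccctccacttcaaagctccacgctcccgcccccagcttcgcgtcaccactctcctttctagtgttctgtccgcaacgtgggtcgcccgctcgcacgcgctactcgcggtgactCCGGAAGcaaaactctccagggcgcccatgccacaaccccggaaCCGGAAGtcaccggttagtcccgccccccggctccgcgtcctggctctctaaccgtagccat
Mrps18a (chr17:46110754-46111053, plus strand): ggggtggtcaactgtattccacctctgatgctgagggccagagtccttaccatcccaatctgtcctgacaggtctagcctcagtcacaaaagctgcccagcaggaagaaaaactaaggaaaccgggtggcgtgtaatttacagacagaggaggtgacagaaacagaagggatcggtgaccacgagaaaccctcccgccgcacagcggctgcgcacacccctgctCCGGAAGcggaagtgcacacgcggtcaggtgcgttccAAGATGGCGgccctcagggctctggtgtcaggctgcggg
Mrpl44 (chr1:79775768-79776067, plus strand): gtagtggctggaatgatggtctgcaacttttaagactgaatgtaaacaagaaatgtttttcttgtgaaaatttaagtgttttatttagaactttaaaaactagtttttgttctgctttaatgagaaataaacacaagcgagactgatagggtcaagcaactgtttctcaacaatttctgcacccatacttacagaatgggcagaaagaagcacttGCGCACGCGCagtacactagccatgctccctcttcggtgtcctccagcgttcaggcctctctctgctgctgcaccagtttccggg
The window of Mrpl22 held 1 ETS match, whose first base lay at -53 relative to the start. In Mrpl43 the 2 ETS matches began at -56 and -12. The window of Mrps18a held an ETS match at -26 and a YY1 match at 11 after the start. Mrpl44, the gene that fell most, held an NRF1 match on the opposite strand at -35 and no ETS match.

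Over the whole set, 65 of the 74 genes matched the promoter table, with 71 windows. The ETS letters occurred in 24 of the 65 genes (36.9%), against 20.5% of the 6564 kept genes with a window and 9.93% of all 27025 genes in the table. The NRF1 letters occurred in 12 genes (18.5%), against 12.1% of kept genes and 5.19% of all genes. The YY1 letters occurred in 10 genes (15.4%), against 6.40% of kept genes and 2.76% of all genes. The letters TGANTCA, a motif of AP-1, the dimer that holds the JNK substrate c-Jun, occurred in 3 genes (4.62%), against 7.01% of kept genes and 8.97% of all genes. By their result with Jnk1 against GFP shRNA, ETS letters stood in 12 of 25 genes that were higher, 1 of 5 that were lower and 11 of 35 that were not called. NRF1 letters stood in 3 of the 25, 1 of the 5 and 8 of the 35. These are matches of letters and not sites of binding. In all, 10 spellings had been counted, and those given here were chosen with the counts known; the other 6 were CCGGAA (37 of 65 genes), CCAAT (25), GGGGCGGGG (13), AAGATGGC (11), the NRF1 letters with A in place of N (3) and TCAAGGTCA (0 of 65, where 0.350% of kept genes had it).

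Values below are intensities after quantile normalization, which gives all arrays the same distribution, and every comparison is a difference of mean log2 intensity. It was tested with limma over 13575 kept probe sets, and a gene was called at a Benjamini-Hochberg adjusted p under 0.05. Array values are given in the order of the labels' replicate numbers.

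GFP array 2 stood apart from its group, with a deposited median intensity of 58.3 against 45.8 to 47.8 on the other GFP arrays and a mean correlation of 0.942 with them. The targeted gene was low in the Jnk1 group: Mapk8, which encodes JNK1, stood at 40.2% of the GFP shRNA level on its brightest probe set (log2 fold change -1.31 ± 0.11 SE, adjusted p = 3.5e-07) and at 37.9% of the vehicle level (-1.40 ± 0.10 SE, adjusted p = 4.4e-08). An exact two-sided permutation test over arrays gave p = 0.00794 for each of the 2 comparisons. This is the smallest value that the 126 splits of the arrays (GFP shRNA) and 252 splits (vehicle) allow. Of its other probe sets, one fell by 1.12 on the log2 scale against GFP shRNA and one had -0.12, which was not called (adjusted p = 0.561).

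Against GFP shRNA, the mitochondrial ribosomal protein genes were more often higher than lower in Jnk1 shRNA liver. Of the 74, 30 were higher (40.5%), 5 were lower (6.76%) and 39 were not called. Of all probe sets tested, 17.3% were called higher and 15.8% lower. In the large subunit 17 of 47 genes were higher and 4 lower, with a median log2 fold change of 0.16. In the small subunit 13 of 27 were higher and 1 lower, with a median of 0.29. The median over all kept probe sets was -0.01, and the quartiles lay at -0.27 and 0.27. The 5 Jnk1 arrays lay entirely above the 4 GFP arrays for 26 genes and entirely below for 4, where 28.1% of all probe sets did not overlap in one direction or the other. Without GFP array 3 the large subunit had 12 calls in place of 21, 11 of them higher. The share of all probe sets called in that fit is not given here, so the drop cannot be read as particular to these genes. The 74 log2 fold changes ran from -1.21 (Mrpl44) to 1.04 (Mrpl22). The lower calls varied with the scaling. With each array scaled to the same median, 24 large and 16 small subunit genes were higher and 1 (Mrpl44) and 0 were lower. The median over all probe sets then moved to 0.09, and 72.3% of all calls were higher, against 52.3% with quantile normalization. In a limma fit of the deposited intensities without further normalization, Mrpl44 (-1.18, adjusted p = 6.12e-07), Mrpl3 (-0.23, adjusted p = 0.0464) and Mrps17 (-0.18, adjusted p = 0.0459) stayed lower. Mrpl16 (-0.19, adjusted p = 0.0678) and Mrpl24 (-0.13, adjusted p = 0.174) were not called there.

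**Figure D1:**
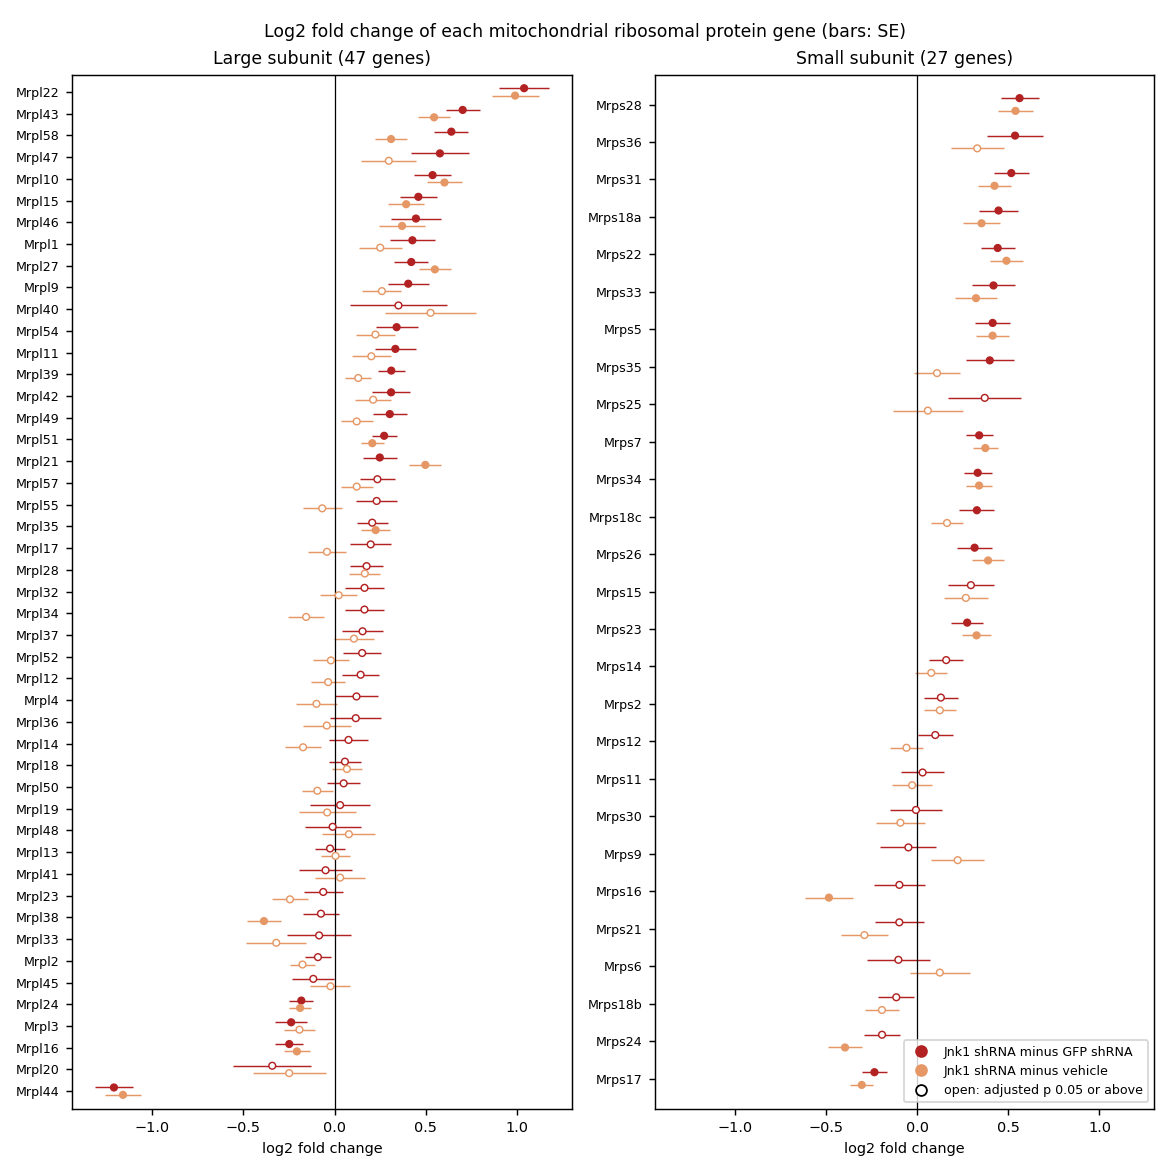
Log2 fold change (x axis) of each of the 74 genes with its SE, large subunit left and small subunit right, in order of Jnk1 shRNA minus GFP shRNA (dark points); light points are Jnk1 shRNA minus vehicle, and open points were not called. Most genes lie right of 0, from Mrpl22 at 1.04 to Mrpl44 at -1.21.

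Against vehicle, too, more genes of the set were higher than lower, with fewer calls. Here 20 of the 74 genes were higher and 7 lower, where 18.9% of all probe sets were called higher and 18.7% lower. The large subunit had 10 higher (21.3%) and 4 lower (8.51%), with a median log2 fold change of 0.07. Its share higher lay near that of all probe sets. The small subunit had 10 higher (37.0%) and 3 lower (11.1%), with a median of 0.16. The median over all kept probe sets was -0.02. The groups did not overlap for 15 genes above and 7 below, and for 27.7% of all probe sets in either direction. Both comparisons use the same Jnk1 arrays, so their values are set side by side and not counted as 2 pieces of evidence. Higher in both were 9 large subunit genes (Mrpl10, Mrpl15, Mrpl21, Mrpl22, Mrpl27, Mrpl43, Mrpl46, Mrpl51 and Mrpl58) and 10 small subunit genes (Mrps5, Mrps7, Mrps18a, Mrps22, Mrps23, Mrps26, Mrps28, Mrps31, Mrps33 and Mrps34). Lower in both were Mrpl16, Mrpl24, Mrpl44 and Mrps17. With each array scaled to the same median, 10 large and 12 small subunit genes were higher than in vehicle and 2 and 0 lower. Of all calls against vehicle, 56.0% were then higher, where quantile normalization had 50.3%. In a limma fit of the deposited intensities without further normalization, Mrpl44, Mrpl38 (adjusted p = 0.00967), Mrps16 (0.0127), Mrps17 (0.00516) and Mrps24 (0.00849) stayed lower than in vehicle. Mrpl16 (adjusted p = 0.0801) and Mrpl24 (0.0639) were not called there. With the level of bacterial control probe sets as a covariate, 4 genes were higher and 4 lower in each subunit. The share of all probe sets called in that fit is not given here.

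Between the GFP virus and vehicle, 0 of the 74 genes were called by limma (1 large subunit gene with the bacterial control level as a covariate, and 0 in the other alternatives), where 2.58% of all probe sets were, and the smallest adjusted p was 0.0758 (Mrpl58). A second kept probe set of Mrpl52, which did not stand for the gene, was called lower (-0.38 ± 0.09, adjusted p = 0.0326). At an unadjusted p under 0.05 there were 10 genes, 1 higher and 9 lower, a count to set beside 15.3% of all probe sets. The fitted values leaned to the negative side, with 53 of 74 below 0 and medians of -0.10 for the large and -0.08 for the small subunit, against -0.02 over all kept probe sets.

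**Figure D2:**
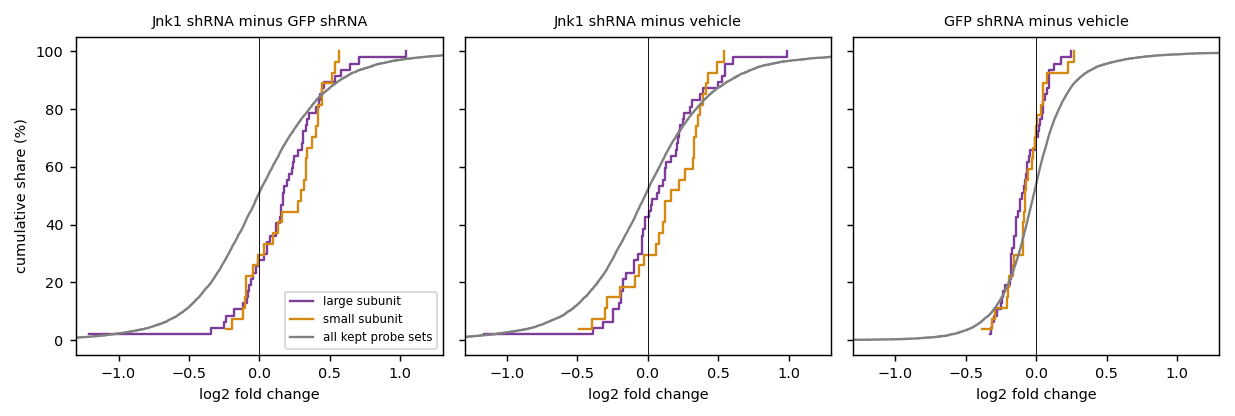
Cumulative share of genes (y axis, percent) by log2 fold change (x axis) for the large subunit, the small subunit and all kept probe sets, 1 panel per comparison. The 2 subunit curves lie right of the curve of all probe sets over most of their range for Jnk1 shRNA minus GFP shRNA (medians 0.16 and 0.29 against -0.01), and slightly left of it for GFP shRNA minus vehicle (-0.10 and -0.08 against -0.02).

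On the probe sets that stood for the genes, the large subunit's strongest rise was in Mrpl22. It is the counterpart of a bacterial protein that lines the tunnel through which the new chain leaves. Its normalized intensities were 533, 396, 645, 400 and 447 with Jnk1 shRNA, 233, 252, 196 and 248 with GFP shRNA and 262, 264, 237, 206 and 232 with vehicle. All Jnk1 arrays lay above all other arrays. The level was 2.06 times that of GFP shRNA (log2 fold change 1.04 ± 0.14 SE, adjusted p = 2.72e-05) and 1.99 times that of vehicle (0.99 ± 0.13, adjusted p = 1.57e-05). Mrpl43 is specific to the mitochondrial ribosome. It read 392, 373, 443, 397 and 338 with Jnk1 shRNA, 250, 226, 233 and 242 with GFP shRNA and 263, 277, 303, 226 and 261 with vehicle, again without overlap between the Jnk1 arrays and the rest. Its fold was 1.63 over GFP shRNA (log2 0.70 ± 0.09, adjusted p = 3.37e-05) and 1.46 over vehicle (0.55 ± 0.09, adjusted p = 0.000143).

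Mrpl58, also called ICT1, is a peptidyl-tRNA hydrolase built into the large subunit and able to free stalled chains. Its intensities were 280, 260, 287, 236 and 248 with Jnk1 shRNA, 173, 157, 187 and 155 with GFP shRNA and 200, 239, 198, 204 and 217 with vehicle. The Jnk1 arrays cleared the GFP arrays, which themselves lay below all vehicle arrays, and overlapped the vehicle arrays at 1 array. The fold was 1.56 over GFP shRNA (log2 0.64 ± 0.09, adjusted p = 6.56e-05) and 1.24 over vehicle (0.31 ± 0.09, adjusted p = 0.00989). Mrpl10 forms the base of the stalk on which translation factors land. It had 471, 395, 533, 439 and 444 with Jnk1 shRNA, 310, 344, 268 and 335 with GFP shRNA and 350, 300, 277, 276 and 298 with vehicle, with the Jnk1 arrays above all others. The log2 fold change was 0.54 ± 0.10 against GFP shRNA (adjusted p = 0.00079) and 0.60 ± 0.10 against vehicle (adjusted p = 0.000128).

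Mrpl27, whose bacterial counterpart reaches into the peptidyl transferase centre, read 935, 740, 919, 792 and 802 with Jnk1 shRNA, 651, 683, 520 and 651 with GFP shRNA and 570, 638, 561, 562 and 522 with vehicle. The Jnk1 arrays did not overlap the others, and the log2 fold change was 0.42 ± 0.09 against GFP shRNA (adjusted p = 0.0026) and 0.55 ± 0.09 against vehicle (adjusted p = 0.000127). Mrpl47, the relative of a bacterial protein near the tunnel exit, was dimmer and less even. It had 123, 128, 153, 120 and 102 with Jnk1 shRNA, 97.1, 70.7, 87.1 and 79.3 with GFP shRNA and 82.2, 108, 140, 99.1 and 84.4 with vehicle. The Jnk1 arrays cleared the GFP arrays (log2 0.58 ± 0.16, adjusted p = 0.0108) but overlapped the vehicle arrays (0.30 ± 0.15, adjusted p = 0.137, not called).

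**Figure D3:**
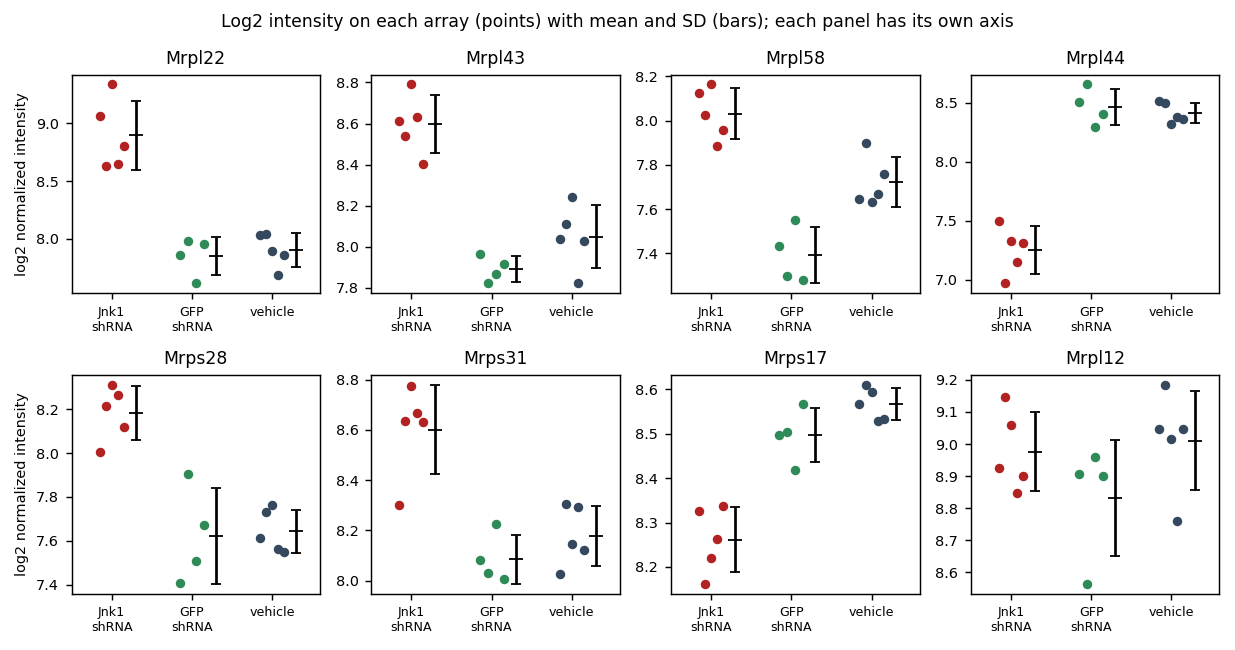
Log2 normalized intensity (y axis, a separate range in each panel) of 8 genes on every array, with group mean and SD; Jnk1 shRNA is left, GFP shRNA in the middle, vehicle right. The Jnk1 arrays lie above both other groups for Mrpl22, Mrpl43 and Mrps28 and below both for Mrpl44 and Mrps17, and overlap them for Mrpl12; the genes were picked after their values had been seen.

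The largest fall of the set was in Mrpl44, one of 5 genes called lower against GFP shRNA. It encodes a mitochondrion-specific protein with the fold of RNase III, and in humans mutations in this gene cause a childhood cardiomyopathy. Its intensities were 181, 125, 160, 143 and 159 with Jnk1 shRNA, 363, 403, 314 and 338 with GFP shRNA and 365, 361, 320, 332 and 329 with vehicle. The highest Jnk1 array lay well under the lowest array of either other group. The level was 0.432 times that of GFP shRNA (log2 fold change -1.21 ± 0.11 SE, adjusted p = 5.46e-07) and 0.447 times that of vehicle (-1.16 ± 0.10, adjusted p = 2.24e-07). A second probe set of the gene also fell (-1.04 ± 0.12 against GFP shRNA, adjusted p = 9.14e-06, and -0.93 ± 0.11 against vehicle, adjusted p = 8.6e-06). The third and dimmest, with a mean intensity of 50.1, had -0.32 ± 0.27 and -0.39 ± 0.26 and was not called. Whether the Jnk1 hairpin matches the Mrpl44 transcript was not tested, as its sequence is not in the sources used here.

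Mrpl50 fell on one of its probe sets only: the dimmer one, with a mean intensity of 116.9, had -0.79 ± 0.12 against GFP shRNA (adjusted p = 0.000148) and -0.85 ± 0.12 against vehicle (adjusted p = 2.66e-05), while the brighter one that stood for the gene had 0.05 (adjusted p = 0.704) and -0.09 (adjusted p = 0.411). Other large subunit genes were called lower on the probe set that stood for them. Mrpl16, the counterpart of a bacterial protein beside the site where tRNAs enter, had 411, 416, 462, 403 and 368 with Jnk1 shRNA, 499, 468, 510 and 478 with GFP shRNA and 497, 524, 443, 463 and 450 with vehicle. The Jnk1 arrays lay below the GFP arrays and overlapped the vehicle arrays (log2 -0.25 ± 0.08, adjusted p = 0.0213, and -0.21 ± 0.07, adjusted p = 0.0352). Mrpl24, whose bacterial relative starts the assembly of the large subunit, had 472, 443, 401, 431 and 433 with Jnk1 shRNA, 492, 476, 498 and 511 with GFP shRNA and 492, 516, 486, 475 and 514 with vehicle. The Jnk1 arrays were the 5 lowest, at -0.18 ± 0.06 (adjusted p = 0.0407) against GFP shRNA and -0.19 ± 0.06 (adjusted p = 0.0223) against vehicle. With each array scaled to the same median the Mrpl24 value against GFP shRNA turned to 0.04 (adjusted p = 0.848), and Mrpl16 stood at -0.03 (adjusted p = 0.87).

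Mrpl3, whose bacterial counterpart is another early assembly protein, read 142, 170, 143, 163 and 153 with Jnk1 shRNA, 166, 188, 174 and 199 with GFP shRNA and 172, 183, 170, 169 and 186 with vehicle. The groups touched, and its call against GFP shRNA was marginal (-0.24 ± 0.09, adjusted p = 0.0483): it was lost when any of 12 of the 14 arrays was left out. Against vehicle it had -0.19 ± 0.08 (adjusted p = 0.0813). Mrpl38, a mitochondrion-specific protein of the central protuberance, had 168, 145, 162, 141 and 149 with Jnk1 shRNA, 175, 156, 155 and 157 with GFP shRNA and 220, 215, 217, 176 and 176 with vehicle. Here both virus groups lay below all vehicle arrays. The value was -0.07 ± 0.10 for Jnk1 against GFP shRNA (adjusted p = 0.596), -0.39 ± 0.09 against vehicle (adjusted p = 0.00351) and -0.31 ± 0.10 for GFP shRNA against vehicle, which was not called (adjusted p = 0.121).

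The stalk and the factor-binding region were followed whatever their result. Mrpl12, the stalk protein proper, which also binds the mitochondrial RNA polymerase, had 486, 566, 534, 461 and 477 with Jnk1 shRNA, 479, 379, 497 and 478 with GFP shRNA and 529, 582, 518, 434 and 529 with vehicle. The 3 groups overlapped, at 0.14 ± 0.10 (adjusted p = 0.291) against GFP shRNA and -0.04 ± 0.09 (adjusted p = 0.803) against vehicle. Mrpl11, which lies under the stalk in the region that binds translation GTPases, had 221, 262, 283, 212 and 235 with Jnk1 shRNA, 199, 168, 182 and 220 with GFP shRNA and 174, 210, 227, 223 and 220 with vehicle. It was called higher against GFP shRNA (0.33 ± 0.11, adjusted p = 0.0324) although the groups overlapped, and not against vehicle (0.20 ± 0.11, adjusted p = 0.154). That call was lost without GFP array 2, GFP array 3, Jnk1 array 2 or Jnk1 array 3. Of the stalk genes, Mrpl10 rose against both groups and Mrpl12 met the threshold against neither.

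In the small subunit the largest rises against GFP shRNA were in Mrps28, Mrps36, Mrps31, Mrps18a and Mrps22; against vehicle they were in Mrps28, Mrps22, Mrps31 and Mrps5. Mrps28, which its current name relates to the bacterial S1 protein, had 257, 297, 318, 307 and 278 with Jnk1 shRNA, 170, 240, 182 and 204 with GFP shRNA and 196, 212, 217, 189 and 187 with vehicle. Every Jnk1 array exceeded every other array, at 0.56 ± 0.10 against GFP shRNA (adjusted p = 0.000625) and 0.54 ± 0.10 against vehicle (adjusted p = 0.000403). Mrps31, a mitochondrion-specific protein, had 315, 398, 438, 406 and 396 with Jnk1 shRNA, 271, 261, 299 and 257 with GFP shRNA and 261, 316, 283, 313 and 279 with vehicle. Jnk1 array 1 was the low one of its group and lay among the vehicle arrays. The log2 fold change was 0.52 ± 0.10 against GFP shRNA (adjusted p = 0.000717) and 0.42 ± 0.09 against vehicle (adjusted p = 0.00166).

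Mrps22, mitochondrion-specific and known in humans from severe infantile disease when mutated, had 322, 364, 350, 349 and 306 with Jnk1 shRNA, 248, 252, 267 and 229 with GFP shRNA and 218, 276, 263, 212 and 240 with vehicle. The groups did not overlap, at 0.44 ± 0.09 (adjusted p = 0.00181) against GFP shRNA and 0.49 ± 0.09 (adjusted p = 0.000361) against vehicle. Mrps5, whose bacterial counterpart helps to keep decoding accurate, had 178, 160, 183, 171 and 160 with Jnk1 shRNA, 127, 119, 151 and 117 with GFP shRNA and 132, 134, 132, 117 and 124 with vehicle. The Jnk1 arrays again lay above the rest, at 0.41 ± 0.10 (adjusted p = 0.00339) and 0.41 ± 0.09 (adjusted p = 0.00172), and its second probe set was called in the same direction in both comparisons.

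The mouse genome holds several relatives of bacterial S18, and their calls differed. Mrps18a, which structures place in the large subunit despite its symbol, had 363, 295, 391, 292 and 329 with Jnk1 shRNA, 229, 225, 274 and 249 with GFP shRNA and 248, 298, 228, 255 and 277 with vehicle. It was called higher against both groups (0.45 ± 0.11, adjusted p = 0.00442, and 0.35 ± 0.10, adjusted p = 0.0112), with 1 vehicle array inside the Jnk1 range. Mrps18c, which takes the place of the bacterial protein, had 389, 453, 462, 469 and 392 with Jnk1 shRNA, 319, 353, 382 and 326 with GFP shRNA and 378, 393, 432, 324 and 410 with vehicle. The Jnk1 arrays cleared the GFP arrays (0.33 ± 0.10, adjusted p = 0.0152) and overlapped the vehicle arrays (0.16 ± 0.09, adjusted p = 0.175). Mrps18b had 259, 247, 289, 277 and 229 with Jnk1 shRNA, 245, 323, 315 and 250 with GFP shRNA and 299, 289, 296, 284 and 317 with vehicle. It was not called in either comparison, at -0.12 ± 0.10 (adjusted p = 0.4) and -0.19 ± 0.09 (adjusted p = 0.12). The differences between these genes were not tested.

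Further symbols do not say where the protein sits. Mrps30, a large subunit protein in structures, had 178, 119, 195, 155 and 161 with Jnk1 shRNA, 159, 140, 159 and 187 with GFP shRNA and 190, 136, 183, 183 and 164 with vehicle. The 3 groups overlapped fully (-0.01 ± 0.14, adjusted p = 0.974, against GFP shRNA and -0.09 ± 0.13, adjusted p = 0.622, against vehicle). Mrps36 is now assigned to the oxoglutarate dehydrogenase complex of the citric acid cycle and not to the ribosome. It had 188, 115, 221, 155 and 161 with Jnk1 shRNA, 109, 126, 107 and 112 with GFP shRNA and 160, 123, 137, 119 and 119 with vehicle. Jnk1 array 2 lay among the GFP arrays; the gene was called against GFP shRNA (0.54 ± 0.15, adjusted p = 0.0139) and not against vehicle (0.33 ± 0.15, adjusted p = 0.0899). With Mrps18a and Mrps30 counted in the large subunit and Mrps36 left out, 18 of 49 large subunit genes were higher and 4 lower against GFP shRNA, and 11 of 24 small subunit genes were higher and 1 lower.

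Few small subunit genes fell. Mrps17, a protein of bacterial descent that binds the ribosomal RNA, had 321, 286, 298, 307 and 323 with Jnk1 shRNA, 361, 363, 342 and 379 with GFP shRNA and 379, 391, 386, 369 and 370 with vehicle. All Jnk1 arrays lay below all others, and the spread within each group was small (-0.24 ± 0.07, adjusted p = 0.0126, and -0.30 ± 0.06, adjusted p = 0.00111); with each array scaled to the same median the values were -0.02 (adjusted p = 0.901) and -0.22 (adjusted p = 0.101). Mrps16, of bacterial descent and known in humans from fatal lactic acidosis when mutated, had 217, 151, 155, 156 and 152 with Jnk1 shRNA, 222, 164, 155 and 170 with GFP shRNA and 189, 284, 237, 221 and 229 with vehicle. Both virus groups read low on most arrays. Unlike with Mrpl38, both overlapped the vehicle arrays, as vehicle array 1 (189) lay below Jnk1 array 1 (217) and GFP array 1 (222). Mrps16 was lower against vehicle (-0.48 ± 0.13, adjusted p = 0.00823) and close to GFP shRNA (-0.10 ± 0.14, adjusted p = 0.627). GFP shRNA against vehicle had -0.39 ± 0.14 and was not called (adjusted p = 0.183). Mrps24, which structures place at the entry of the messenger RNA, had 250, 188, 216, 194 and 212 with Jnk1 shRNA, 261, 229, 216 and 260 with GFP shRNA and 264, 295, 255, 295 and 280 with vehicle. The Jnk1 arrays lay below the vehicle arrays (-0.40 ± 0.09, adjusted p = 0.00272) and overlapped the GFP arrays (-0.19 ± 0.10, adjusted p = 0.142); against vehicle, Mrps16 and Mrps24 had -0.42 (adjusted p = 0.0519) and -0.31 (adjusted p = 0.0566) with median scaling. Mrps12, at the decoding centre, had 446, 348, 452, 382 and 341 with Jnk1 shRNA, 372, 393, 372 and 326 with GFP shRNA and 397, 455, 387, 409 and 392 with vehicle, and was not called (0.10 ± 0.10, adjusted p = 0.464, and -0.06 ± 0.09, adjusted p = 0.649).

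By descent, 43 genes of the set were classed as having a bacterial homologue and 29 as specific to mitochondria. Mrpl55 and Mrps36 were not assigned. The class of 29 includes Mrps18a and Mrps18b, although they are relatives of bacterial S18. Against GFP shRNA, 16 of the 29 mitochondrion-specific genes were higher and 1 was lower, with a median log2 fold change of 0.31. Of the 43 genes with a bacterial homologue, 13 were higher and 4 lower, with a median of 0.13. The share was highest in the mitochondrion-specific part of the small subunit by symbol, where 8 of 11 genes were higher and 3 were not called. These 11 include Mrps18a, which was higher, and Mrps18b and Mrps30, which were not called. Structures place Mrps18a and Mrps30 in the large subunit. Against vehicle, 11 of 29 mitochondrion-specific genes were higher and 2 lower (median 0.13), and 9 of 43 with a bacterial homologue were higher and 5 lower (median 0.02). Of all probe sets, 17.3% were higher and 15.8% lower against GFP shRNA, and 18.9% and 18.7% against vehicle. The share of genes with a bacterial homologue that were higher against vehicle (20.9%) lay near that background. The difference between the classes was not tested.

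Of the 74 genes, 26 had several kept probe sets. Against GFP shRNA 11 of them were called, 5 on every kept probe set (Mrpl15, Mrpl39, Mrpl49, Mrps5 and Mrps23) and the others on some (Mrpl1, Mrpl3, Mrpl9, Mrpl11, Mrpl44 and Mrpl51). Against vehicle 7 were called, 4 of them on every kept probe set. The size of the change also differed between probe sets. Mrpl15 had 0.46 ± 0.10 against GFP shRNA on the probe set that stood for it. Its other kept probe sets had 1.10 ± 0.19, 1.02 ± 0.24, 0.71 ± 0.09 and 0.48 ± 0.11. Further genes were called on another kept probe set and not on the one that stood for them. Against GFP shRNA these were Mrpl50 and Mrps14, which were lower there (adjusted p = 0.000148 and 0.0174), and Mrpl41, Mrpl52 and Mrps15, which were higher (adjusted p = 0.0283, 0.00383 and 0.00433). Against vehicle, Mrpl50 and Mrps14 were lower on such a probe set and Mrpl11, Mrpl39, Mrpl48 and Mrps15 higher. In these comparisons 0 of the 26 had probe sets with calls in opposite directions. The fitted values against GFP shRNA did differ in sign between kept probe sets for Mrpl13, Mrpl28, Mrpl34, Mrpl41, Mrpl48, Mrpl50, Mrpl51 and Mrps14. Of these only Mrpl51 was called on the probe set that stood for it (0.27), and its second kept probe set had -0.04.

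The Jnk1 arrays also differed from the others in a technical measure. The mean log2 level of 18 bacterial control probe sets was 7.89, 8.76, 8.31, 8.35 and 8.50 on the Jnk1 arrays, 8.83 to 9.01 on the GFP arrays and 8.77 to 9.03 on the vehicle arrays. Only Jnk1 array 2 lay near the others. The mean level of the large subunit genes, relative to the vehicle mean, was 0.11, -0.00, 0.21, 0.02 and 0.04 on the Jnk1 arrays and between -0.12 and -0.06 on the GFP arrays, while the vehicle arrays ran between -0.06 and 0.10. For the small subunit it was 0.20, 0.05, 0.24, 0.12 and 0.05 on the Jnk1 arrays, -0.08 to -0.05 on the GFP arrays and -0.06 to 0.07 on the vehicle arrays. Every Jnk1 array lay above every GFP array in both subunits, and neither subunit separated Jnk1 from vehicle.

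With the control level as a covariate, 5 large subunit genes (4 higher, 1 lower) and 3 small subunit genes (2 higher, 1 lower) were called against GFP shRNA, and 4 higher and 4 lower in each subunit against vehicle. The share of all probe sets called with the covariate is not given here, so the drop in calls cannot be read as particular to these genes. Mrpl1, Mrpl22, Mrpl43, Mrpl44, Mrpl58, Mrps17, Mrps28 and Mrps31 were called against GFP shRNA in the full fit and with the covariate. A further alternative, added after the data were seen, had Jnk1 array 2 alone for its group and assumed that it varies like the others. There the small subunit median was 0.20 against GFP shRNA, where the full fit had 0.29. The large subunit median was -0.0039 against vehicle, where the full fit had 0.07. In that array Mrpl22 was higher than with GFP shRNA by 0.78 and Mrpl44 stood at -1.49. The sign of 34 of the 35 calls against GFP shRNA was kept with the covariate, and that of all 35 in Jnk1 array 2 alone. Those 35 genes were chosen by a fit that held the same arrays, so agreement in sign was largely built in and was not a separate test. The fold change and the control level move with the group, and their parts cannot be told apart beyond these values.

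**Figure D4:**
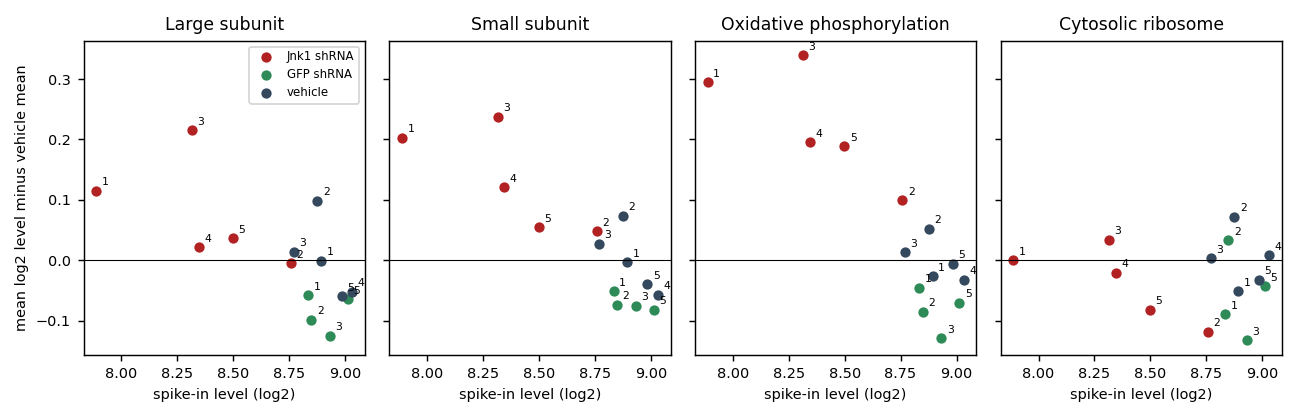
Mean log2 level relative to the vehicle mean (y axis) against the mean log2 level of the 18 bacterial control probe sets (x axis, "spike-in level") on each array, numbered by replicate; panels are the large subunit, the small subunit, the oxidative phosphorylation subunits and the cytosolic ribosomal proteins. Jnk1 arrays (red) spread from 7.89 to 8.76 on the x axis and the other arrays lie from 8.77 to 9.03; the highest Jnk1 subunit means are those of arrays 1 and 3.

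Genes around the mitochondrial ribosome were compared in lists written for this work. Of all probe sets, 17.3% were higher and 15.8% lower against GFP shRNA, and 18.9% and 18.7% against vehicle. Against GFP shRNA, 52 of 71 kept subunits of oxidative phosphorylation were higher and 19 were not called, with a median log2 fold change of 0.34. Examples were Ndufs7 and Ndufa8 of complex I (0.79 ± 0.08, adjusted p = 2.47e-06, and 0.68 ± 0.08, adjusted p = 8.49e-06) and Cox6b1 of complex IV (0.59 ± 0.07, adjusted p = 6.33e-06). Against vehicle 43 of the 71 were higher and 3 lower. Of 23 genes for mitochondrial protein import, 13 were higher and 4 lower against GFP shRNA (median 0.36), and 10 were higher and 4 lower against vehicle. The import list split by member: Timm13 (0.70 ± 0.08, adjusted p = 4.87e-06) and Tomm22 (0.69 ± 0.09, adjusted p = 1.72e-05) rose, while Timm8a1, an intermembrane space chaperone, fell by 1.64 on the log2 scale (SE 0.08, adjusted p = 1.35e-09). Of the 4 mitoribosomal proteins measured under another symbol, Gadd45gip1 (0.44 ± 0.12, adjusted p = 0.011) and Ptcd3 (0.41 ± 0.11, adjusted p = 0.0114) were higher against GFP shRNA and 2 were not called. Against vehicle Ptcd3 (0.43 ± 0.11, adjusted p = 0.00467) and Dap3 (0.45 ± 0.15, adjusted p = 0.0239) were higher, Chchd1 was lower (-0.38 ± 0.10, adjusted p = 0.00872) and Gadd45gip1 was not called (0.17 ± 0.12, adjusted p = 0.264).

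The lists for running and building the mitochondrial translation apparatus held calls in both directions, where 17.3% of all probe sets were higher and 15.8% lower against GFP shRNA; the shares called higher among translation factors (18.2%) and mitochondrial DNA expression genes (20%) lay near that background. Of 11 translation factors, 2 were higher and 1 lower against GFP shRNA: the elongation factor Gfm1 had 0.29 ± 0.09 (adjusted p = 0.0223), Metap1d, a methionine aminopeptidase, 0.35 ± 0.12 (adjusted p = 0.0422) and Pdf, the peptide deformylase, -0.43 ± 0.11 (adjusted p = 0.00594). Of 8 mitochondrial tRNA synthetases, 2 were higher, Iars2 (0.57 ± 0.11, adjusted p = 0.00104) and Rars2 (0.50 ± 0.10, adjusted p = 0.00104), and 3 were lower, Pars2 (-0.68 ± 0.22, adjusted p = 0.0229), Hars2 (-0.34 ± 0.11, adjusted p = 0.0254) and Sars2 (-0.38 ± 0.14, adjusted p = 0.0494). Of 20 assembly and rRNA modification genes, 5 were higher and 1 lower. The genes Afg3l2 and Spg7, for subunits of a protease of the inner membrane, had 0.46 ± 0.08 (adjusted p = 0.000417) and 1.43 ± 0.33 (adjusted p = 0.00314), and Fastkd5, for an RNA-processing protein, had -0.48 ± 0.11 (adjusted p = 0.00363). Of 15 genes for mitochondrial DNA expression, 3 were higher and 3 lower, among them Polrmt, the mitochondrial RNA polymerase (0.89 ± 0.12, adjusted p = 2.58e-05), its elongation factor Tefm (0.95 ± 0.20, adjusted p = 0.00169) and Grsf1, an RNA granule protein (-0.47 ± 0.09, adjusted p = 0.000803). Against vehicle, 1 translation factor was higher and 2 lower, 3 tRNA synthetases were higher and 1 lower, 4 assembly genes were higher and 1 lower, and 4 genes for mitochondrial DNA expression were higher and 3 lower. Of all probe sets, 18.9% were higher and 18.7% lower against vehicle.

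Among 9 regulators of nuclear genes for mitochondria, the coactivator gene Ppargc1b was higher against GFP shRNA (1.51 ± 0.35, adjusted p = 0.00324) and Myc was lower (-1.15 ± 0.33, adjusted p = 0.0124); against vehicle Yy1 was higher (0.31 ± 0.11, adjusted p = 0.0428) and Myc lower (-1.02 ± 0.31, adjusted p = 0.0151). Of 41 kept genes for proteins of the cytosolic ribosome, 8 were higher and 4 lower against GFP shRNA, with a median of 0.04, and 4 were higher and 4 lower against vehicle, with a median of -0.05. Their share higher against GFP shRNA (19.5%) lay near that of all probe sets (17.3%). A difference between these lists and the mitochondrial ribosomal proteins was not tested.

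**Figure D5:**
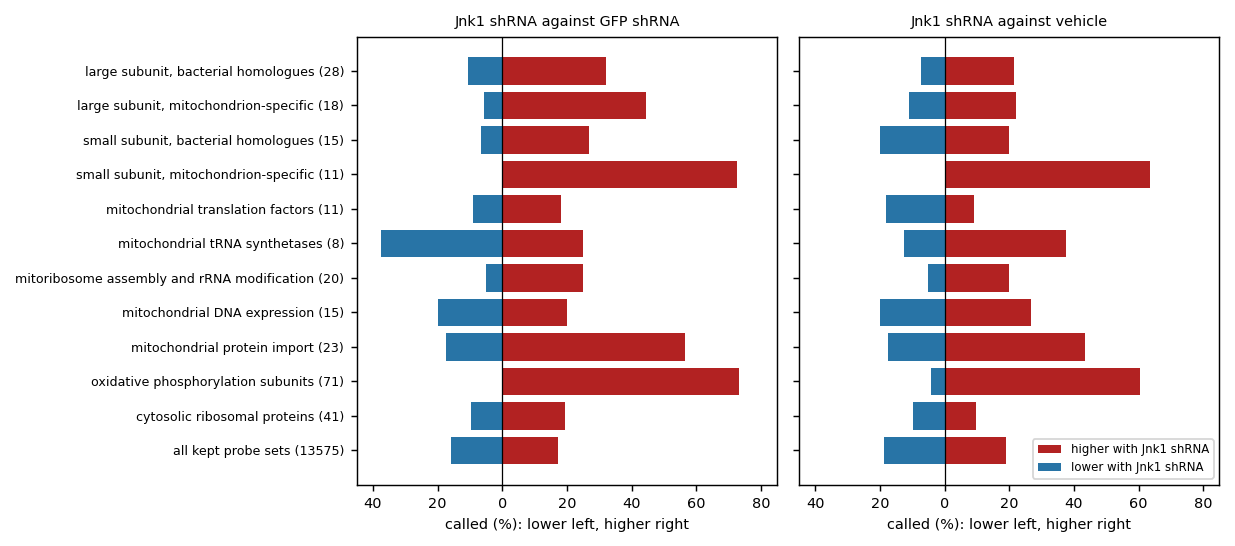
Share of genes called higher (red, right of 0) and lower (blue, left of 0) with Jnk1 shRNA, in percent on the x axis, against GFP shRNA (left panel) and against vehicle (right panel), with the number of genes of each list in brackets and all 13575 kept probe sets in the bottom row. Genes classed as mitochondrion-specific in the small subunit by symbol (8 of 11 higher against GFP shRNA) and oxidative phosphorylation subunits (52 of 71) have the longest red bars. The 11 include Mrps18a, Mrps18b and Mrps30.

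Markers of liver cell types moved as well. Their counts stand beside a background of 17.3% of all probe sets higher and 15.8% lower against GFP shRNA, and 18.9% and 18.7% against vehicle. The summed level of 7 Kupffer cell and macrophage markers was 2063 to 2613 on the Jnk1 arrays, 4105 to 4580 on the GFP arrays and 2376 to 3727 on the vehicle arrays, and 6 of the 7 were lower with Jnk1 than with GFP shRNA and 3 of 7 than with vehicle. The summed level of 7 endothelial markers was 722 to 841 on the Jnk1 arrays, 921 to 1148 on the GFP arrays and 1069 to 1141 on the vehicle arrays, with 3 of 7 lower against GFP shRNA and 5 of 7 against vehicle. Of 4 stellate cell markers 2 were lower against either group, with sums of 1192 to 1336 on the Jnk1 arrays, 1742 to 1996 on the GFP arrays and 1546 to 1823 on the vehicle arrays. Of 8 hepatocyte markers 3 were lower against GFP shRNA and 5 against vehicle, with sums of 33112 to 34749 on the Jnk1 arrays, 35605 to 36838 on the GFP arrays and 35113 to 38367 on the vehicle arrays. Proliferation markers summed to 991 to 1340 with Jnk1 shRNA, 724 to 850 with GFP shRNA and 367 to 540 with vehicle; 2 of 7 were higher against GFP shRNA and 6 of 7 against vehicle. The 2 kept erythroid markers summed to 146 to 242 on the Jnk1 arrays, 533 to 685 on the GFP arrays and 571 to 700 on the vehicle arrays; 1 was lower against GFP shRNA and 2 against vehicle. The 2 kept T and NK cell markers summed to 92.0 to 124 on the Jnk1 arrays, 74.5 to 108 on the GFP arrays and 23.9 to 45.7 on the vehicle arrays; both were higher against vehicle and neither was called against GFP shRNA. The 1 kept B cell marker was not called in either comparison. None of the 4 cholangiocyte markers on the array was kept. The part of these cell type shifts in the ribosomal protein values was not tested.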

How the data were processed

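Liver RNA of 14 samples (5 Jnk1 shRNA, 4 GFP shRNA, 5 vehicle, grouped by the sample titles) was isolated with a Qiagen RNeasy kit and biotin-labelled, per the labels' protocols. The deposited values are linear probe set intensities for 22690 probe sets. How the authors made them is not given in the sources used here, and neither detection calls nor background measurements were used. The mean without the top and bottom 2% of values was 150.05 to 150.06 on all 14 arrays. The deposited arrays thus already shared a common scale before the steps below. The deposited array medians spanned 0.48 on the log2 scale, so the intensities were quantile normalized, set to a floor at their 5th percentile (2.01) and log2 transformed. Tests used neither the 64 control probe sets nor the 40% of the others with the lowest mean, which left 13575 (lowest mean intensity 28.4).

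Group means were fitted to all 14 arrays with limma 3.58.1 in R 4.3.3 (moderated variances with an intensity trend; 11 residual and 4.94 prior degrees of freedom) and p-values were adjusted over all 13575 probe sets. The number of arrays limits the precision. The fit was also run on simulated data with independent normal noise in each probe set. Those data held no difference in control level between groups, so they cannot show how the fit handles one. Symbols are those of the platform annotation of the array, in which 20393 probe sets had 1 symbol, 691 several and 1606 none, and all 74 genes matched RefSeq (GRCm38.p6) by Entrez identifier.

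The genes and lists were chosen with earlier results of these data known. Named with all values are up to 4 called genes per subunit, direction and comparison with the largest change, 8 genes fixed whatever their result (Mrpl11, Mrpl12, Mrps12, Mrps18a, Mrps18b, Mrps18c, Mrps30 and Mrps36) and, from each list, up to 3 called genes with the smallest p. Alternatives were the normalization, filter, floor, variance model, array weights, samples in the fit, probe set choice, subunit assignment, control level as a covariate, replicate block and leaving out each array.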

Additional observations from a re-analysis of the deposited data

Results flagged for a closer look

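Of 96 sets of array values that were screened, 7 held an array far from the others of its group, by the gap to its nearest neighbour over the group's range; about 1 in 20 such sets is picked out by chance. Among the genes, Mrps16 read 216.8 on Jnk1 array 1, where the other Jnk1 arrays had 150.6 to 155.9. Mrpl38 read 174.8 on GFP array 1, against 155.2 to 157.3 on the other GFP arrays. Mrpl12 read 378.6 on GFP array 2, where the others had 478 to 497.4. Mrpl11 read 173.6 on vehicle array 1, against 210.3 to 226.7 on the other vehicle arrays. Mapk8 read 149.2 on vehicle array 3, against 184.2 to 185.8 on the others. GFP array 2 also stood out as a whole, with a deposited median intensity of 58.34 (45.78 to 47.83 on the other GFP arrays) and a mean correlation with its own group of 0.9419 (0.9638 to 0.967 on the others).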

How the results depend on the processing

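With each array scaled to the same median, the median log2 fold change of the large and small subunit was 0.37 and 0.44 for Jnk1 against GFP shRNA, 0.16 and 0.24 against vehicle, and -0.23 and -0.20 for GFP shRNA against vehicle, while the median of all probe sets was 0.09 for Jnk1 against GFP shRNA and -0.11 for GFP shRNA against vehicle. Of all calls for Jnk1 against GFP shRNA, 72.3% were then higher, against 52.3% with quantile normalization. In that setting Mrpl24 turned to 0.0358 against GFP shRNA; the cause was not tested. With the bacterial control level as a covariate, 5 large and 3 small subunit genes were called for Jnk1 against GFP shRNA (small subunit median 0.11), 8 and 8 against vehicle (small subunit median 0.054), and 1 large subunit gene for GFP shRNA against vehicle. With Jnk1 array 2 alone for its group, chosen after seeing the data, the counts were 5 and 2 against GFP shRNA (small subunit median 0.20) and 3 and 4 against vehicle (large subunit median -0.0039); this fit has fewer arrays by construction. Leaving out 1 array at a time gave 12 to 20 large and 12 to 15 small subunit calls against GFP shRNA, the 12 large ones without GFP array 3, and 11 to 16 and 12 to 14 against vehicle. Calls held in every such fit for 11 of 21 large and 11 of 14 small subunit genes against GFP shRNA, and for 10 of 14 and 12 of 13 against vehicle. With the replicate block, 18 large and 13 small subunit genes were called against GFP shRNA, 12 and 13 against vehicle, and 0 and 0 for GFP shRNA against vehicle. After the group mean of each probe set was subtracted, same-numbered arrays of different groups correlated at -0.235 to 0.121. The numbers were therefore not taken to pair the samples. The remaining alternatives kept the counts within 1.5 times and the medians within the spread between arrays. The shares of all probe sets called in the covariate, leave-one-out and replicate block fits are not given here. A drop in those counts cannot be read as particular to these genes. Without detection calls, how far dim probe sets lie above background was not measured.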
